A study of Mus musculus with 6 samples.

Results

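The alpha-arrestins Txnip, Arrdc1, Arrdc2, Arrdc3 and Arrdc4 and the glucose-sensing transcription factors Mlxip, Mlxipl and Mlx were examined in primary mouse skin cells grown in normal or high glucose. These 8 genes were taken by name from the 55487 gene identifiers of the count table, and all 8 passed the filter on low counts that left 19015 genes. They were selected on their log2 fold changes between high and normal glucose, which were already known from these same libraries. Their differences between the groups are therefore given as a description, with no test.

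Alpha-arrestins are adaptor proteins with an arrestin fold that bring NEDD4 family ubiquitin ligases to proteins of the plasma membrane, which are then internalized. Txnip also binds thioredoxin and promotes the internalization of the glucose transporter GLUT1. Mlxip, which encodes MondoA, and Mlxipl, which encodes ChREBP, are transcription factors that pair with Mlx, respond to glucose 6-phosphate and bind E-box-like carbohydrate response elements. Txnip and Arrdc4 are known target genes of these pairs, so the comparison addresses how a well-described glucose-sensing pathway stood after 48 hours of a raised glucose supply.

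The cells came from the skin of C57BL/6 mice aged 2 to 3 months, with 4 to 6 mice used for an isolation, and were enriched with beads against CD31, an endothelial surface protein. The 3 normal glucose samples were cultured at 5 mmol/L and the 3 high glucose samples at 20 mmol/L, and both groups were harvested at 48 hours. The study's figure legends describe the groups as 3 mice each, whereas its methods and the labels describe isolations that used several mice. None of these sources ties a sample to an animal or an isolation. P values therefore measure the spread between these samples. Library totals lay between 120192466 and 146881356 counts, and levels are given as CPM, counts scaled to a library total of 1000000 after the TMM method adjusted that total for composition. For genes outside the chosen set, a call required P below 0.05 after Benjamini-Hochberg adjustment over all 19015 genes in the quasi-likelihood test of edgeR. For the chosen genes the same rule serves only to count them.

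The label of the cells as endothelial was not borne out by several defining markers. Pecam1, which encodes CD31 itself, had 9 to 19 counts per library, Cldn5 had 0 to 4, Emcn 0 to 9, and Tie1 at most 2. Others were read more often, with 91 to 242 counts for Cdh5, 151 to 302 for Tek, 576 to 777 for Kdr and 4457 to 8030 for Flt1. Calls went both ways: Tek (log2 fold change 0.66) and Erg (1.45, at 2 to 15 counts) were higher, and Cdh5 (-1.03) and Flt1 (-0.53) lower. The summed level of 12 endothelial markers ran from 204 to 232 CPM in normal glucose and from 184 to 190 CPM in high glucose, and lay mostly in Eng and Flt1. The sum of 12 fibroblast markers ran from 42821 to 46129 CPM in normal glucose and from 76115 to 80596 CPM in high glucose. This sum lay mostly in Col3a1, Col1a2 and Col1a1, and the mean of Col3a1 alone went from 12421 to 32515 CPM. Of the 12, 10 were called higher and Thy1 was called lower, where 16.9% of all tested genes were called higher and 14.5% lower. The sum of 8 mural cell markers ran from 918 to 1009 CPM and from 882 to 941 CPM, with Rgs5 called higher and Cspg4 (log2 fold change -0.91), Des (-0.71) and Acta2 (-0.29) called lower. For 7 macrophage markers the sums were 8.59 to 9.76 CPM and 5.81 to 6.60 CPM, with 0 counts of Adgre1 in 5 of the 6 libraries. Of the 4 tested, 3 were called lower: Csf1r (log2 fold change -0.73), Cd68 (-0.46) and Mrc1 (-1.41, at 9 to 41 counts). Lyz2 (-0.12) was not called. For 6 keratinocyte markers they were 4.05 to 5.01 CPM and 4.59 to 5.04 CPM, with Krt1 and Cdh1 at most 3 counts. Within that list, Krt5 went from 2 counts in each normal glucose library to 23, 12 and 14 in high glucose (log2 fold change 2.95, called higher) and Krt14 from 2, 0 and 0 counts to 35, 9 and 31. The part of the cell makeup in the results below was not tested. In bulk samples, a change in the share of a cell type and a change in RNA per cell cannot be told apart.

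Promoter sequences are shown for the 4 genes whose windows held the E-box CACGTG or, for Txnip, the closely spaced E-box-like letters on which its known response to glucose rests. RefSeq windows from 250 bases before to 50 bases after each annotated start (GRCm38.p6) were found for all 8 genes, 11 windows in total, and the stretches run 5′ to 3′ on the gene's strand. Capitals mark CACGTG or CACGAG.
Txnip (chr3:96557707-96557926, plus strand, 250 to 31 bases upstream of the start): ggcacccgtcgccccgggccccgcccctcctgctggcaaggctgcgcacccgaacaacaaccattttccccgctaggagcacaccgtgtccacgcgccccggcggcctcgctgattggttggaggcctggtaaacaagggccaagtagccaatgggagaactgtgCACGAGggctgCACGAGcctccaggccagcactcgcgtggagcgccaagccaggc
Arrdc4 (chr7:68749269-68749488, minus strand, 250 to 31 bases upstream): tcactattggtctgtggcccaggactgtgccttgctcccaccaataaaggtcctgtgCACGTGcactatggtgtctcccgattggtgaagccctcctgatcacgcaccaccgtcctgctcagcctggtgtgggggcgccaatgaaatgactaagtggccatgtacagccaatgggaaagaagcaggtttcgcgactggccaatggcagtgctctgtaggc
Mlxipl (chr5:135089770-135089859, plus strand, 120 to 31 bases upstream of the upstream start): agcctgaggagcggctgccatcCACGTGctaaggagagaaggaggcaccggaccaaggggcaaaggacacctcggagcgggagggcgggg
Mlx (chr11:101087170-101087259, plus strand, 120 to 31 bases upstream): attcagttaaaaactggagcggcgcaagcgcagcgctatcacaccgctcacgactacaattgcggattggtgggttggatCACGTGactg

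In the Txnip promoter, 2 copies of CACGAG lay 85 to 80 and 74 to 69 bases upstream of the start, and together they formed the single match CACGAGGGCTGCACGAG to the spaced repeat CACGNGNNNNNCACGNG. The repeat was searched for after the Txnip promoter had been seen. Searched on both strands, it was present in 16 of 32851 mouse promoter windows (0.0487%), belonging to 15 genes, and Txnip was the only one of the 8 genes to hold it. Of the 15 genes, 11 were tested and 3 were called higher: Txnip itself, Man2b2, with a log2 fold change of 0.48, and Nfkb2, with one of 0.16. None of the 11 was called lower. Over all tested genes, 16.9% were called higher and 14.5% lower, so with Txnip set aside the count stood near the background. The letters of the published carbohydrate response element consensus, searched under that name, were found in 0.119% of windows and in no window of the 8 genes.

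The single E-box CACGTG was present in 7.15% of windows and was found 193 bases upstream in Arrdc4, 98 bases upstream of the upstream start of Mlxipl and 40 bases upstream in Mlx. CACGAG, which occurred in 6.47% of windows, was found on the opposite strand in Arrdc1, 158 and 118 bases upstream, and in Arrdc2, 77 bases upstream, and on the gene's strand 196 bases upstream in Mlxipl. The windows of Arrdc3 and Mlxip held neither. For Arrdc1 alone, the bases just after the RefSeq start were found in no GENCODE transcript of the gene, so its distances are less sure. The Txnip promoter also held the forkhead-type letters GTAAACA 121 to 115 bases upstream, which were in 3.65% of windows. CCAAT, a box bound by NF-Y, was present in 37.4% of windows. It occurred 2 times in the Txnip window, and 6 times in that of Arrdc4, a number reached by 0.0791% of windows. Genes with a CACGTG box thus included Arrdc4, which stood higher in high glucose, and Mlx, whose groups overlapped. A match is a description of these letters and no evidence of binding, and the letters' absence says nothing about a factor.

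All 8 genes had a log2 fold change above 0 in high against normal glucose, although that of Mlx fell below 0 under scaling by library size alone and without high glucose replicate 3. The rule for calling was met by 5 of the 8, Txnip, Arrdc2, Arrdc3, Arrdc4 and Mlxip, all of them higher, where 31.4% of all tested genes were called and 16.9% were called higher. The lowest high glucose value exceeded the highest normal glucose value for 7 of the 8, all but Mlx, where this held for 25.1% of all tested genes. In the opposite order the groups were separate for 21.3% of tested genes, and in either order for 46.4%. Since the same contrast chose the genes, these counts are read no further.

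Txnip, at chr3:96557957-96561883 (GRCm38, plus strand, ENSMUSG00000038393), was the member with the highest level and the largest difference. It stood at 224, 227 and 221 CPM in normal glucose replicates 1, 2 and 3, and at 455, 473 and 473 CPM in high glucose. The groups were far apart, with 228 CPM between the highest normal and the lowest high glucose library and 27993 to 64580 counts behind each value. The means were 224 ± 3.14 CPM and 467 ± 10.3 CPM (SD, n = 3 each), a gain of 109% and a log2 fold change of 1.06 (SE 0.048). Replicates differed little, by a coefficient of variation of 1.41% in normal and 2.20% in high glucose, where the medians over all genes averaging 3 or more in log2 CPM were 5.97% and 3.21%.

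**Figure D1:**
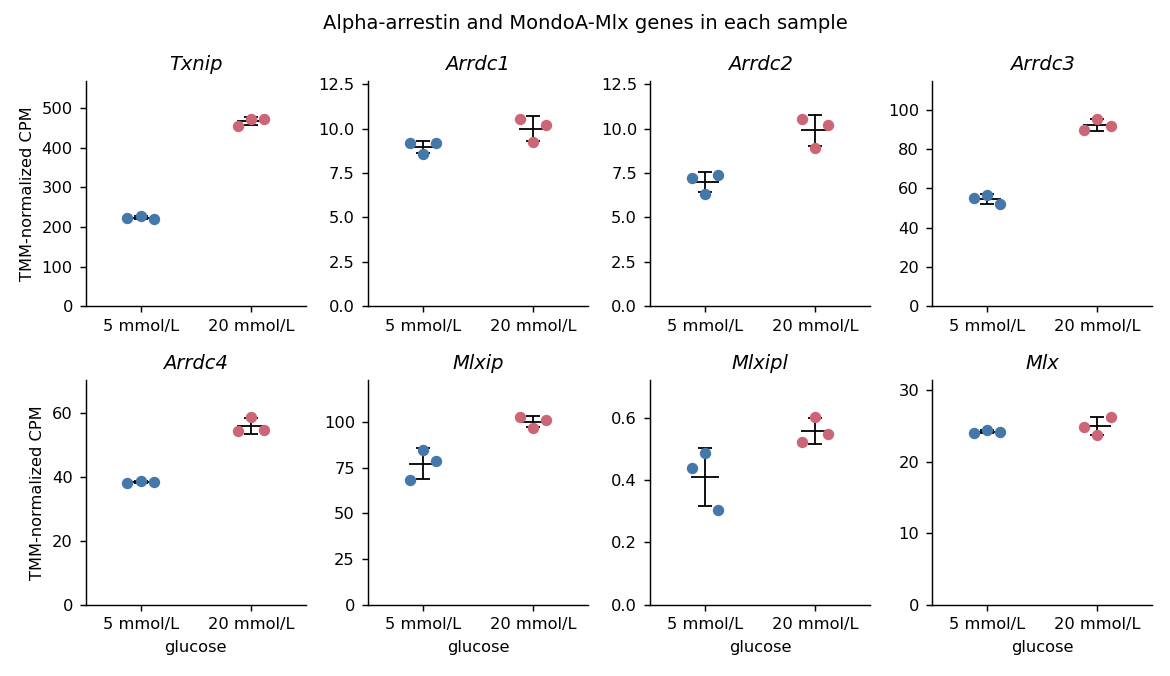
Level of each of the 8 genes in CPM (vertical axes, 1 panel per gene, each starting at 0) in the 3 normal and 3 high glucose samples, with points for samples and bars for the mean and SD. The groups are separate for every gene but Mlx, with the widest separation for Txnip (221 to 227 against 455 to 473 CPM), and the direction of Mlx reverses under scaling by library size alone and without high glucose replicate 3.

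Among all genes, Txnip moved from an upper to a still higher rank. Its transcripts held 0.0227% to 0.0238% of all counts in normal glucose and 0.0440% to 0.0455% in high glucose. In normal glucose 741 tested genes had a higher mean CPM, and in high glucose 264. Per kilobase of exon, which allows levels of different genes to be compared, 629 genes stood above it in normal and 261 in high glucose, of 18994 genes with a length. Since Txnip was chosen with its difference known, the ranks that follow are a description. In gain of CPM, which grows with the level of a gene, 64 genes exceeded its 243. By log2 fold change, 353 genes called higher exceeded it. Of the 198 genes called higher that started from at least its normal glucose level, 14 did. These 14 included the complement component C3 (log2 fold change 2.01), the collagen Col3a1 (1.39), the complement inhibitor Serping1 (1.10) and the cytochrome Cyp1b1 (1.09), which were chosen for mention after their values were seen.

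Arrdc4, the closest relative of Txnip among the alpha-arrestins, lies at chr7:68736995-68749241 (minus strand, ENSMUSG00000042659). Its levels were 38.3, 38.7 and 38.6 CPM in normal glucose and 54.4, 58.8 and 54.8 CPM in high glucose. The normal glucose samples were almost equal and all lay at least 15.7 CPM below every high glucose sample. The means were 38.5 ± 0.237 and 56.0 ± 2.43 CPM, a gain of 45.3% and a log2 fold change of 0.54 (SE 0.052). The difference was smaller than that of Txnip: the ratio of Txnip to Arrdc4 per kilobase rose in value from 7.51 ± 0.102 to 10.8 ± 0.373, with no overlap between groups.

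Arrdc3, an adaptor for the beta2-adrenergic receptor and the integrin Itgb4, lies at chr13:80883384-80896042 (plus strand, ENSMUSG00000074794). It stood at 55.0, 56.8 and 51.9 CPM in normal glucose and at 89.7, 95.5 and 91.6 CPM in high glucose. Every high glucose sample was at least 32.9 CPM above every normal one, the widest separation after Txnip. The means were 54.6 ± 2.47 and 92.3 ± 2.97 CPM, a gain of 69.1% and a log2 fold change of 0.76 (SE 0.055). Among the alpha-arrestins this difference lay between those of Txnip and Arrdc4, and per kilobase the ratio of Txnip to Arrdc3 went from 8.23 ± 0.263 to 10.2 ± 0.206.

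The order of Arrdc3 and Arrdc4 per kilobase turned between the groups. Their ratio was 0.926, 0.945 and 0.867 in normal glucose, against 1.06, 1.05 and 1.08 in high glucose, so that Arrdc3 was below Arrdc4 in each normal glucose sample and above it in each high glucose sample. Both lengths were taken as the union of annotated exons, 6266 bases for Arrdc3 and 4039 for Arrdc4. A different transcript in use would shift the ratio in both groups. The ratio was thus higher in high glucose, but which gene was more abundant in either group is not settled.

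Arrdc2, an alpha-arrestin of lower abundance at chr8:70835129-70839720 (minus strand, ENSMUSG00000002910), had 7.23, 6.33 and 7.36 CPM in normal glucose. In high glucose it had 10.6, 8.92 and 10.2 CPM. Replicate 2 was the lowest of its group in both groups, and the groups were 1.55 CPM apart. The means were 6.97 ± 0.562 and 9.91 ± 0.873 CPM, a gain of 42.0% and a log2 fold change of 0.51 (SE 0.093), close in size to that of Arrdc4, with 898 to 1500 counts behind each value.

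Arrdc1, which takes part in the budding of vesicles at the plasma membrane, lies at chr2:24925352-24935252 (minus strand, ENSMUSG00000026972). It had 9.17, 8.57 and 9.16 CPM in normal glucose and 10.6, 9.22 and 10.2 CPM in high glucose. High glucose replicate 2 lay just 0.0515 CPM above the highest normal glucose sample, so the groups were barely separate. The means were 8.96 ± 0.346 and 9.99 ± 0.691 CPM, a gain of 11.4% and a log2 fold change of 0.16 (SE 0.077), the smallest of the 5 alpha-arrestins and 0.10 to 0.20 with 1 sample left out. Arrdc5, the remaining alpha-arrestin gene in the table, had 0 counts in every library, where 3 counts would correspond to 0.0212 to 0.0258 CPM.

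Mlxip, which encodes the sensor MondoA, lies at chr5:123394798-123457932 (plus strand, ENSMUSG00000038342). It stood at 68.1, 84.8 and 78.6 CPM in normal glucose and at 103, 96.6 and 101 CPM in high glucose. Normal glucose replicate 1 was the lowest sample, and all 3 of its group lay at least 11.8 CPM below the high glucose samples. The means were 77.2 ± 8.41 and 100.1 ± 3.13 CPM, a gain of 29.7% and a log2 fold change of 0.37 (SE 0.076). Its coefficient of variation of 10.9% in normal glucose was the largest among the members other than Mlxipl, and its log2 fold change ran from 0.27 to 0.44 when 1 sample was left out.

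Mlxipl, which encodes ChREBP, the sensor best known from liver, lies at chr5:135089890-135138382 (plus strand, ENSMUSG00000005373). It had 39 to 74 counts per library, or 0.439, 0.486 and 0.305 CPM in normal glucose and 0.522, 0.602 and 0.549 CPM in high glucose. The lowest high glucose sample was 0.0353 CPM above the highest normal one. The means were 0.410 ± 0.0944 and 0.558 ± 0.0409 CPM, a log2 fold change of 0.44 with the widest error of the 8 genes (SE 0.21), so that its size is poorly set at this depth. It was 0.25 without normal glucose replicate 3 and 0.57 without normal glucose replicate 2. Per kilobase, Mlxip was 103, 116 and 172 times as abundant as Mlxipl in normal glucose and 131, 107 and 122 times in high glucose, so the transcripts of MondoA far outnumbered those of ChREBP in both groups.

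Mlx, the shared partner of both sensors, lies at chr11:101087277-101092207 (plus strand, ENSMUSG00000017801). It stood at 24.0, 24.4 and 24.1 CPM in normal glucose and at 24.9, 23.7 and 26.2 CPM in high glucose. High glucose replicate 2 was the lowest of all 6 samples and the groups overlapped. The means were 24.2 ± 0.206 and 24.9 ± 1.24 CPM, a log2 fold change of 0.05 (SE 0.055) that became -0.07 under library size alone and -0.01 without high glucose replicate 3. The ratio of Mlxip to Mlx per kilobase was 0.682, 0.835 and 0.781 in normal glucose, against 0.990, 0.977 and 0.926 in high glucose. By this measure MondoA transcripts were fewer than those of Mlx in all 6 samples but nearer to them in high glucose. The measure used union exon lengths of 8326 bases for Mlxip and 1999 for Mlx. A different transcript in use would shift the ratio in both groups, so which was more abundant in high glucose is not settled.

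**Figure D2:**
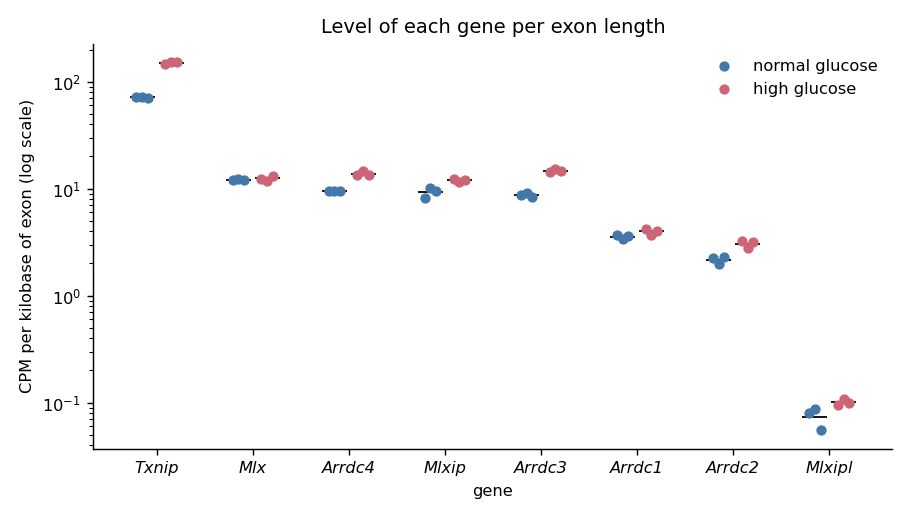
Level of the 8 genes (horizontal axis) in CPM per kilobase of exon on a log axis (vertical), with points for the 3 normal and 3 high glucose samples and a line for each mean. Txnip stands above the others in both groups (71.6 and 150 CPM per kilobase) and Mlxipl far below them (0.0741 and 0.101 CPM per kilobase).

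Per kilobase of exon, the order in normal glucose was Txnip at 71.6 ± 1.01 CPM per kilobase, Mlx at 12.1 ± 0.103, Arrdc4 at 9.54 ± 0.0587, Mlxip at 9.27 ± 1.01, Arrdc3 at 8.71 ± 0.394, Arrdc1 at 3.57 ± 0.138, Arrdc2 at 2.16 ± 0.174 and Mlxipl at 0.0741 ± 0.0170. Of these neighbours, Arrdc4 and Mlxip, and Mlxip and Arrdc3, did not differ beyond their spread. In high glucose the order was Txnip at 150 ± 3.28 CPM per kilobase, Arrdc3 at 14.7 ± 0.473, Arrdc4 at 13.9 ± 0.601, Mlx at 12.5 ± 0.622, Mlxip at 12.02 ± 0.376, Arrdc1 at 3.98 ± 0.275, Arrdc2 at 3.06 ± 0.270 and Mlxipl at 0.101 ± 0.00738. Here the SD ranges of Arrdc3 and Arrdc4, and of Mlx and Mlxip, overlapped, although within each high glucose sample Arrdc3 stood above Arrdc4. By union exon length, Mlx thus went from the place behind Txnip to one behind Arrdc3 and Arrdc4, while its own level moved little. A different transcript in use could change these places.

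**Figure D3:**
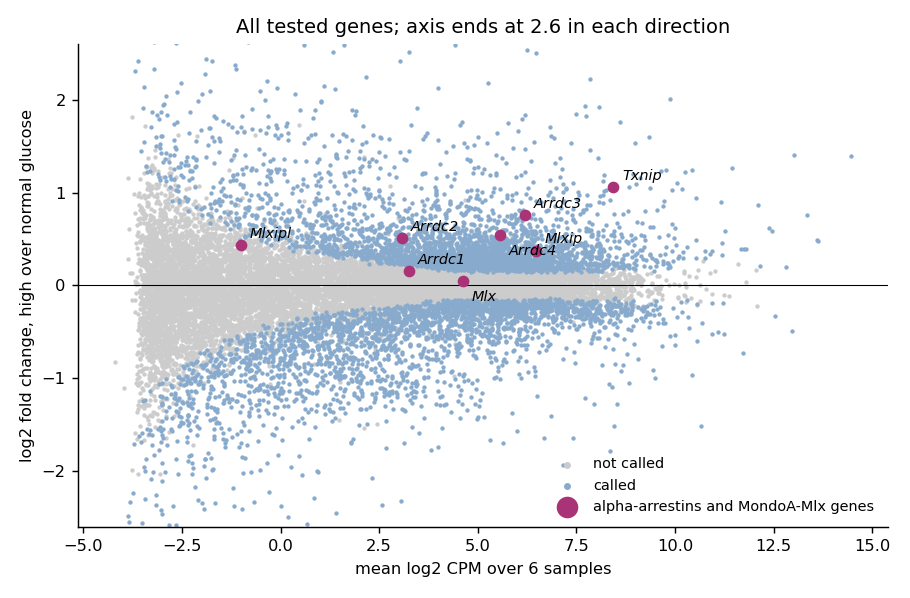
Log2 fold change of high against normal glucose (vertical axis) against mean log2 CPM (horizontal axis) for all tested genes, called in blue and not called in grey, with the 8 genes labelled. In all, 48 genes outside the vertical range are not drawn. Txnip, at 1.06, is the highest of the 8 and Mlx, at 0.05, lies near 0, with a direction that reverses under library size alone and without high glucose replicate 3.

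The median log2 fold change was 0.38 among genes called higher and 0.0062 among all genes tested. Of the 5 members counted as called, Txnip (1.06), Arrdc3 (0.76), Arrdc4 (0.54) and Arrdc2 (0.51) lay above the former value and Mlxip (0.37) beside it. Numbers of genes called higher with a larger log2 fold change were 353 for Txnip, 624 for Arrdc3, 1009 for Arrdc4, 1105 for Arrdc2 and 1624 for Mlxip. The contrast was broad, so a difference of the size seen for Mlxip was common among called genes.

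Exons of 4 of the 8 genes overlapped those of a gene on the opposite strand, and the counting was not stated to use strand, so reads of each pair cannot be told apart there. Txnip shared 606 bases with the antisense transcript Gm15441, for which the normal glucose libraries gave 67, 72 and 79 counts and the high glucose libraries 142, 109 and 105. The log2 fold change of Gm15441 was 0.71 (SE 0.16, adjusted P = 0.00785, edgeR's quasi-likelihood test), in the same direction as Txnip, whose own counts were never below 27993. Mlx shared 385 bases with Psmc3ip, which had 180 to 362 counts and a log2 fold change of -0.58 (adjusted P = 0.0453), opposite to that of Mlx. That call was lost without any 1 sample other than normal glucose replicate 3, with log2 fold changes from -0.66 to -0.35. Mlxip shared 267 bases with Gm15747, at 1 to 8 counts, and Mlxipl 235 bases with Gm43500, at 0 counts in every library.

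The 5 genes whose profile over the 6 samples was nearest to that of Txnip, by the root mean square difference of log2 CPM among 10011 genes, were the alkaline phosphatase Alpl (0.0297), the cytokine Il33 (0.0348), the extracellular matrix protein Ccdc80 (0.0364), the protease inhibitor Serpina3n (0.0372) and Serping1 (0.0406). The likeness rests mostly on a shared difference between groups near 1 on the log2 scale. For Arrdc4 the nearest 5 were Clip1 (0.0218), Scara3 (0.0237), Hr (0.0245), Ahnak (0.0254) and Bmper (0.0289). Neither set held another of the 8 genes.

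**Figure D4:**
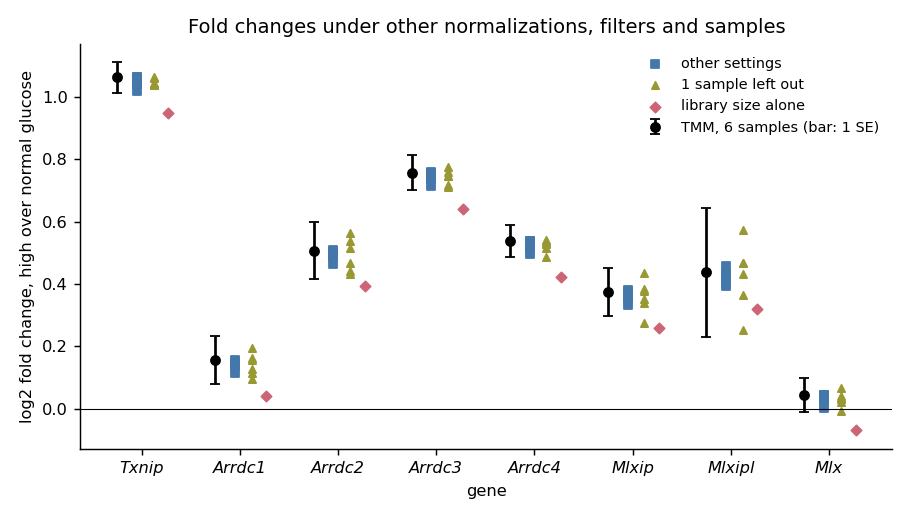
Log2 fold change of high against normal glucose (vertical axis) for each of the 8 genes (horizontal axis), in black with 1 SE for the reported fit and as coloured marks for library size alone, other settings and each sample left out. Txnip stays between 0.95 and 1.06 and the others above 0, except Mlx, which lies between -0.07 and 0.07.

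Across other normalizations, filters, tests and samples left out, the log2 fold change was 0.95 to 1.06 for Txnip, 0.64 to 0.78 for Arrdc3, 0.42 to 0.54 for Arrdc4 and 0.39 to 0.56 for Arrdc2. It was 0.26 to 0.44 for Mlxip, 0.25 to 0.57 for Mlxipl and 0.04 to 0.20 for Arrdc1. Only Mlx changed sign, at -0.07 to 0.07. The low end came mostly from scaling by library size alone, which shifted the median of all genes to -0.11.

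Related genes were counted by lists that were drawn up with results of these data known, and the counts are read against 16.9% of all tested genes called higher and 14.5% called lower. Of 27 carbohydrate-response target genes other than Txnip and Arrdc4, 24 were tested, 8 were called higher and 5 lower, with a median log2 fold change of 0.01. Those higher included Gpam, which starts glycerolipid synthesis, at 80.3 ± 5.31 against 141 ± 3.07 CPM (log2 fold change 0.81, adjusted P = 4.09e-06, edgeR's quasi-likelihood test), and Gpd1, a glycerol 3-phosphate dehydrogenase (0.53, adjusted P = 6.30e-04). Ldha, the most abundant of the list, encodes a lactate dehydrogenase and lay at -0.09 (adjusted P = 0.199), or at -0.21 and called lower under library size alone (adjusted P = 0.00667). The lower calls numbered 2 without high glucose replicate 1 and 3 without replicate 2, and 8 under library size alone. Thus Txnip and Arrdc4 stood higher while their fellow targets went both ways.

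Of the 15 genes for the supply and use of glucose 6-phosphate, the ligand to which MondoA and ChREBP respond, 11 were tested, 4 were called lower and 1 higher, with a median of -0.13. Gpi1, the isomerase that takes glucose 6-phosphate into glycolysis, stood at 547 ± 24.7 against 392 ± 19.0 CPM (log2 fold change -0.48, adjusted P = 1.35e-04), and the hexokinase Hk1 at 183 ± 5.78 against 141 ± 1.16 CPM (-0.38, adjusted P = 2.26e-04). The 1 higher call was lost without any 1 of the high glucose samples, without a filter and under library size alone. In the Max-Mlx network of partner factors, 3 of 10 were called higher and 3 lower, with a median of 0.06. Mga stood at a log2 fold change of 0.50 (adjusted P = 6.79e-04) and Mxd3 one of -1.11 (adjusted P = 1.36e-04), while Mxd4, the most abundant, had 0.05 (adjusted P = 0.530), or -0.07 under library size alone. Mxd3 shares exon bases with Prelid1, whose level was far higher. The higher calls numbered 1 without normal glucose replicate 3, high glucose replicate 2 or high glucose replicate 3, and under library size alone.

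**Figure D5:**
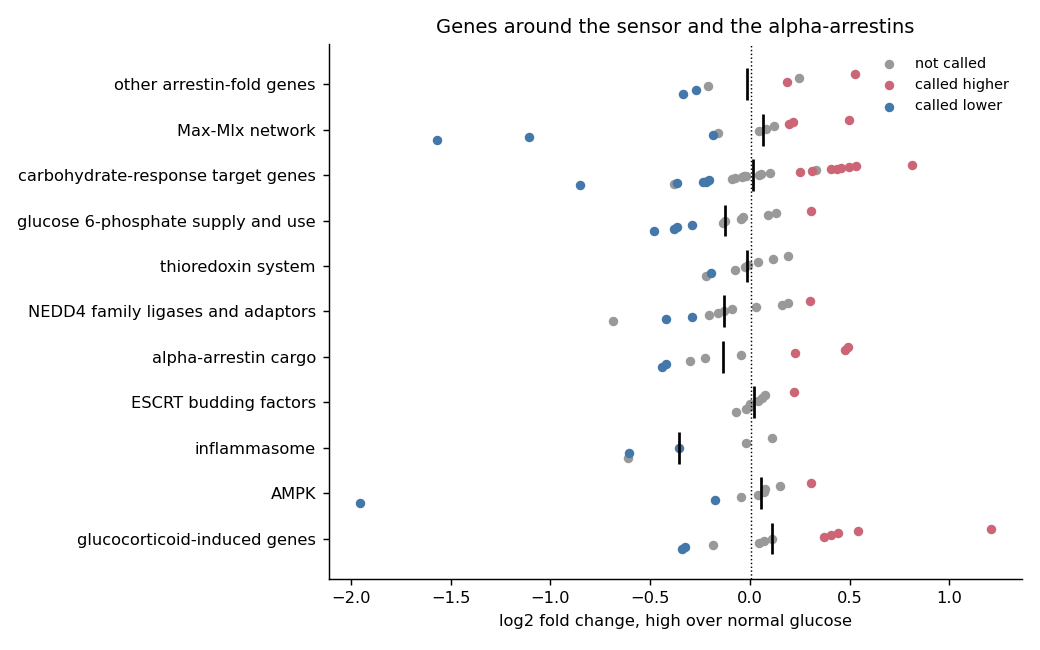
Log2 fold change of high against normal glucose (horizontal axis) for each tested gene of the 11 related gene lists (rows), with calls marked by colour and the median of each list as a bar. Calls go in both directions within most lists, and the list medians run from -0.35 (inflammasome) to 0.11 (glucocorticoid-induced genes), against 0.0062 for all genes.

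Among the NEDD4 family ligases and adaptors that alpha-arrestins recruit, 1 of 11 was called higher and 2 lower (median -0.13). The ligase Nedd4l stood at a log2 fold change of -0.42 (adjusted P = 2.91e-04), Smurf2 had 0.30 (adjusted P = 0.0153) and Nedd4, the most abundant, 0.16 (adjusted P = 0.130). Smurf2 was not called without normal glucose replicate 3 or any 1 high glucose sample (0.26 to 0.30), without a filter (0.28) or under library size alone (0.19), Nedd4 was called without normal glucose replicate 2 (0.21), and the higher calls ran from 0 to 3 in these fits. The lower calls numbered 5 without normal glucose replicate 1 and 1 without high glucose replicate 1 or 3. They numbered 4 under upper quartile scaling, DESeq2, a mean count of at least 100 and halved counts, and 6 under library size alone. Of 8 cargo genes, those for membrane proteins that alpha-arrestins are known to handle, 3 were called higher and 2 lower (median -0.13), or 5 lower under library size alone. The insulin receptor gene Insr (0.49, adjusted P = 1.57e-04) and Notch1 (0.48, adjusted P = 0.00123) were higher, and the thrombin receptor gene F2r was lower (-0.42, adjusted P = 9.63e-05). Of 8 ESCRT budding factors, the machinery with which Arrdc1 works, Vps37c alone was called, at 0.22 (adjusted P = 0.00737), and was not called without high glucose replicate 1 or 3 (0.20 in both) or under library size alone (0.11). Pdcd6ip, the most abundant, had -0.07 (adjusted P = 0.377) and was called lower without normal glucose replicate 1 (-0.14) and under library size alone (-0.19).

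In the thioredoxin system, to which Txnip is linked by binding, none of 8 genes was called higher and Txn2 alone was called lower, at -0.19 (adjusted P = 0.0261, edgeR's quasi-likelihood test), with a list median of -0.02. Txn2 was not called without normal glucose replicate 3 or any 1 high glucose sample (-0.21 to -0.19), and 2 genes were called lower without normal glucose replicate 2, under upper quartile scaling and by DESeq2, and 3 under library size alone. Nxn, the highest in CPM, had 0.04 (adjusted P = 0.576), with its sign reversed under library size alone and upper quartile scaling. Per kilobase of exon the thioredoxin gene Txn1 stood above Nxn, at 148 against 60.4 CPM per kilobase in normal glucose. The log2 fold change of Txn1 was -0.01 (adjusted P = 0.944). Of 6 inflammasome genes, 5 were tested, none was called higher and 2 were lower: Casp1 at -0.61 (adjusted P = 3.43e-04) and the adaptor Pycard at -0.35 (adjusted P = 0.0213), the latter not called without high glucose replicate 1 (-0.35) or 3 (-0.37). Of 8 AMPK-related genes, which include the upstream kinase gene Stk11, 1 was called higher and 2 lower (median 0.06). Prkag2 stood at 0.31 (adjusted P = 0.00169) and Prkag1 at -0.17 (adjusted P = 0.0221). The other lower call was Prkag3 (-1.95), which had only 0 to 17 counts per library. Stk11, the highest of the list in CPM, stood at 0.07 (adjusted P = 0.348), or -0.04 under library size alone. Prkag1 was not called without high glucose replicate 1 or 2 (-0.18 in both), and the lower calls numbered 0 without high glucose replicate 1 and 1 without any other 1 sample.

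Of the other arrestin-fold genes, 6 of 8 were tested, 2 were called higher and 2 lower (median -0.01). The beta-arrestin Arrb1 stood higher by 0.53 (adjusted P = 8.06e-04), and the retromer subunits Vps26a and Vps26b went opposite ways, at -0.34 (adjusted P = 0.00140) and 0.19 (adjusted P = 0.0298). Vps26b was not called without normal glucose replicate 1 (0.12) or any 1 high glucose sample (0.17 to 0.18), nor under upper quartile scaling (0.15), without a filter (0.17) or under library size alone (0.07). The higher calls numbered 1 in these last 3 fits and without any 1 high glucose sample. Of 11 glucocorticoid-induced genes, 5 were called higher and 2 lower (median 0.11). Among the higher were Pdk4 at 0.54 (adjusted P = 3.02e-04), Klf9 at 0.44 (adjusted P = 2.69e-04) and Mt2 at 0.37 (adjusted P = 0.00360). The 2 lower were Fkbp5 (-0.32) and Dusp1 (-0.34), and Tsc22d3 (0.04) and Mt1 (0.07) were among those not called.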

How the data were processed

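Bulk RNA-sequencing of 6 samples was analysed. Per the study's methods, Trimmomatic was used for trimming, HISAT2 for alignment to GRCm38 and StringTie for quantification per gene, and the authors deposited whole-number counts without normalization; versions, annotation release and the use of strand are not given in the sources used here. The labels name TRIzol and the DNBSeq platform, whereas the study's methods name another kit and sequencer. Among low entries of the table, 2 was nearly as frequent as 1 (9280 against 10842), so read pairs may have been counted by read, and halved counts were tried. Of the 55487 identifiers, 55227 had a symbol in GENCODE for GRCm38, and the rest held 0.00694% of counts.

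In edgeR 4.0.16 (R 4.3.3), genes were kept by filterByExpr with a minimum count of 10 and a minimum total of 15. TMM and the quasi-likelihood test of 3 against 3 samples followed, with Benjamini-Hochberg adjustment at 0.05. The procedure was tested on simulated data, in which far fewer genes changed than were called here and as many rose as fell. That test therefore does not check a contrast as broad as this one. The coefficient of variation between replicates was 8.44% for biological variation, and 3 counts corresponded to 0.0212 to 0.0258 CPM, which covers counting error only. Standard errors came from the test statistic. An exact permutation test of 3 against 3 cannot go below 0.1. Motif letters were searched in RefSeq promoter windows on both strands.

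The members and lists were chosen with earlier results of these data known. Named are every member, genes whose exons overlap a member's, and the 5 nearest profiles to Txnip and to Arrdc4 (mean log2 CPM of 3 or more). For each list, the 2 called genes with the largest absolute change (mean log2 CPM of 1 or more) are named. So is the gene with the highest mean log2 CPM, with no correction for length. Fkbp5, Dusp1, Prkag3, Tsc22d3, Mt1 and Txn1 were named besides, to show more of their lists. Alternatives were RLE, upper quartile and library size scaling, 2 filters, DESeq2 1.42.0, the likelihood ratio test, the replicate block, halved counts, stricter thresholds and each sample left out. The labels number replicates 1 to 3 in both groups, and neither they nor the methods say that numbers pair the samples.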

Additional observations from a re-analysis of the deposited data

How the results depend on the processing

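Of 49 genes followed, the 8 members included, 35 kept their direction and side of the threshold in all alternatives run for them. Mlx reversed to -0.069 under library size alone, and with 1 sample left out ran from -0.0086 (without high glucose replicate 3) to 0.065. Mxd4 (-0.068), Stk11 (-0.043) and Nxn (-0.073) also reversed under library size alone, and Nxn did under upper quartile scaling (-0.0014). None of these 4 genes was called in the reported fit.

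The 3212 higher and 2757 lower calls became 1819 and 4884 under library size alone, which by its construction leaves out the composition factors and moved the median of all genes from 0.0062 to -0.11 (log2). The lower share of calls was 46.2%, against 56.5% with upper quartile scaling and 72.9% with library size alone. An adjusted P value under 0.01 left 1946 and 1671 calls, and an absolute log2 fold change of at least 1 left 395 and 542. With 1 sample left out, higher calls ran from 1988 (without high glucose replicate 3; 2010 without replicate 1) to 3149 and lower calls from 2048 to 3065.

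The correlations of the deviations of same-numbered samples were -0.02, 0.0038 and 0.01. These values gave no sign that replicate numbers pair the samples, but they cannot exclude a pairing. With the replicate block, 2909 genes were called higher and 2418 lower, Txnip had a log2 fold change of 1.06, and 1 AMPK gene was called lower in place of 2. Counts of calls within the gene lists moved by over 1.5 times in 59 pairs of a count and a setting. Depth limits Mlxipl, with 39 to 74 counts; it was absent from the fit with a mean count of at least 100.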
